A study of Mus musculus with 15 samples.

Results

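The genes described here are 10 neutrophil chemokine and inflammatory cytokine genes, Cxcl1, Cxcl2, Cxcl3, Cxcl5, Ccl2, Ccl7, Il6, Lif, Nfkbia and Ptgs2, out of 56953 genes in each deposited table. They were chosen by gene symbol, with earlier results from these same libraries in view: cytokine genes had been reported as higher in muscle stem cells (MuSCs) after transplantation, and Nfkbia as near the upper end of the muscle ranking. Their MuSC difference, and that of Nfkbia in muscle, are therefore given as a description with no test. Each of the 10 symbols matched 1 row of each table. All 10 genes had counts in at least 1 MuSC library, and 9 of 10 (all but Cxcl3) in at least 1 muscle library.

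The study isolated MuSCs from wild-type mice of strain 129 by biopsy and returned each animal's own cells to it. The labels give the animals as males of 10 weeks. MuSCs were sampled before transplantation in mice 5, 6 and 11 (3 libraries) and again afterwards in mice of the same numbers, from an area that had received no cells (3 libraries). Quadriceps femoris muscle was sampled in 6 transplanted mice (4, 5, 6, 11, 14 and 94) and in 3 sham-operated mice (3, 12 and 192), although the design text speaks of the lower hindlimb. No source used here gives the time between transplantation and sampling. Libraries are called by group and mouse, such as after 11 or sham 12.

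CXC chemokines with a glutamate-leucine-arginine motif before the first cysteines, here Cxcl1, Cxcl2, Cxcl3 and Cxcl5, attract neutrophils through the receptor Cxcr2. The CC chemokines Ccl2 and Ccl7 attract monocytes through Ccr2. Il6 and Lif are cytokines that signal through the shared receptor chain gp130 (Il6st), and both are known as signals that injured or contracting muscle releases and that act on MuSCs. Ptgs2 (cyclooxygenase-2) starts prostaglandin synthesis, and Nfkbia encodes IκBα, which holds the transcription factor NF-κB in the cytoplasm and is itself induced by it. Many of these genes are standard NF-κB targets, transcribed within a short time of exposure to TNF, IL-1 or bacterial products.

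Libraries held 17.09 to 22.98 M estimated counts (M for mega). The muscle values came in 2 tables, one with 2 shams (3 and 192) and transplanted mice 4, 14 and 94 (the 2-sham table), the other with sham 12 and transplanted mice 5, 6 and 11 (the 1-sham table). The MuSC libraries fell into 2 sets by how their description labels are written, set A (before 5, before 11, after 5) and set B (before 6, after 6, after 11), so that each set holds both groups unevenly. Mouse 11 alone has its libraries before and after in different sets. After 11 had 1.2% mitochondrial counts against 4.44 to 6.28% in the other MuSC libraries. The labels call the animals male, but Xist, transcribed from the inactive X chromosome of females, had at least 10 counts in 14 of 15 libraries. The exception was transplanted 4, with 2 counts. Of the Y-linked genes, Ddx3y reached 10 counts in 0 of 15, and Eif2s3y and Uty had at most 3 and 5 counts. Kdm5d, also Y-linked, had up to 19 counts (sham 3), with 17 in transplanted 4. MuSC markers summed to 929 to 1550 TPM (the deposited level per transcript, scaled for gene length and library) in the 6 MuSC libraries and 54.5 to 79.5 TPM in muscle, and mature myofibre markers to 898 to 12214 TPM and 88371 to 118013 TPM. Bulk RNA cannot tell fewer cells of a type from less RNA per cell.

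In MuSCs all 4 CXC chemokines were low before transplantation, and each library afterwards had a different one of them in excess. Cxcl5 led in after 5, Cxcl3 in after 6 and Cxcl1 in after 11. Together the 4 genes had 30, 18 and 9 counts in before 5, 6 and 11 and 511, 300 and 1868 counts in after 5, 6 and 11, or 2.11, 1.20 and 0.620 TPM against 30.7, 18.3 and 133 TPM. The summed level was thus higher after than before in each of the 3 mice, without overlap. The genes were chosen with a rise of cytokine genes after transplantation known, so this supports nothing.

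Cxcl1, the mouse counterpart of human GRO chemokines, stood at 1.57, 0.990 and 0.520 TPM in before 5, 6 and 11. After transplantation it stood at 8.98, 1.53 and 129 TPM in mice 5, 6 and 11. After 6 was on a level with before 5 in TPM, and after 11 stood alone, where Cxcl1 ranked 950th of all genes by TPM against 8170th or lower in the other libraries. On the scale of CPM (counts scaled to one common library size, but not for gene length) it averaged 37.3 ± 59.1 after (SD, n = 3) and 0.676 ± 0.288 before (n = 3), a fitted log2 difference of 5.78 ± 1.68 (SE). Without after 11 that difference was 2.24, and with after 6 as the lone library after it was 0.87. With the mouse as a block it was 3.41, and with the description set as a term it was 4.49. The log2 difference within each mouse was 2.57, 0.41 and 7.89 in mice 5, 6 and 11. In mouse 11 the library before is of set A and the library after of set B. Within mouse 11 alone, the 7.89 therefore cannot be told apart from a difference between the sets. The other libraries of set B, before 6 and after 6, stood at 0.990 and 1.53 TPM. The fitted difference was 5.92 in set B alone and 3.16 in set A alone. The cause of the level in after 11 was not tested.

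Cxcl5 was at 0.350, 0.130 and 0.100 TPM in before 5, 6 and 11, and at 19.2, 0.610 and 1.09 TPM in the matching libraries after. The groups did not overlap, and after 5 was far above the rest. The mean was 7.17 ± 10.2 CPM after and 0.209 ± 0.122 CPM before (n = 3 each), a log2 difference of 5.04 ± 1.35. Without after 5 the difference was 2.53.

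Cxcl3 was at 0.150, 0.0800 and 0 TPM before and at 0.720, 16.2 and 0.990 TPM after in mice 5, 6 and 11. It was too low in most libraries to pass the filter on low counts. Over 3 libraries each it had 283 counts after, 260 of them in after 6, and 3 before, a ratio of rates of 101 (95% exact counting interval 34.2 to 492, which leaves out the spread between mice). Cxcl2 was at 0.0400, 0 and 0 TPM before and at 1.75, 0 and 1.19 TPM after, so that mouse 6 had none at either time. It had 39 counts after and 1 before, a ratio of 41.7 (7.05 to 1688), and was not tested for the same reason.

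The make-up of these counts changed with the library. Cxcl1 made up 63.3, 77.8 and 77.8% of the counts of the 4 genes in before 5, 6 and 11. The leading gene took 74.4% in after 5 (Cxcl5, 95% Wilson interval 70.4 to 78.0%), 86.7% in after 6 (Cxcl3, 82.4 to 90.1%) and 96.6% in after 11 (Cxcl1, 95.7 to 97.4%). These intervals do not overlap the shares of the same genes in the other libraries after, where Cxcl5 took 5.67 and 1.50%, Cxcl3 1.57 and 0.803%, and Cxcl1 20.4 and 7.67%. They cover counting error only, as do all counting intervals here. The plot of chemokine shares shows this turnover.

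**Figure D1:**
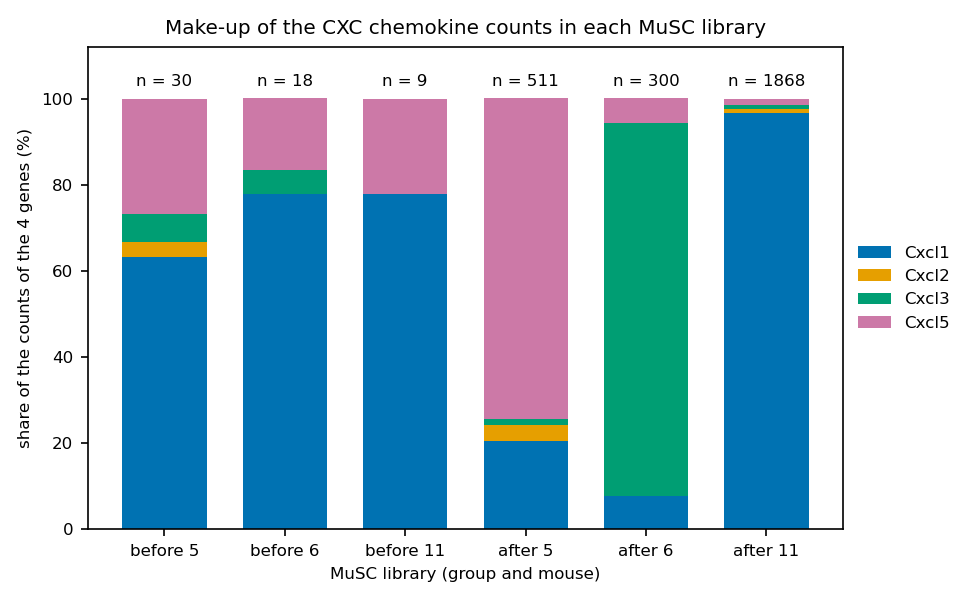
Share of the counts of Cxcl1, Cxcl2, Cxcl3 and Cxcl5 (%, y axis) taken by each gene in the 6 MuSC libraries (x axis, group and mouse), with the summed count of the 4 genes above each bar. Before transplantation Cxcl1 is the largest part of 9 to 30 counts, and afterwards the bar is mostly Cxcl5 in mouse 5, Cxcl3 in mouse 6 and Cxcl1 in mouse 11.

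Reads of close paralogs can be hard to assign, so the transcripts of the chemokines were compared. Transcripts of Cxcl2 and Cxcl3 shared 61 stretches of 50 bases (of 1859 in Cxcl2 and 967 in Cxcl3), so their split is uncertain in part. Cxcl1 and Cxcl5 shared 0 such stretches with each other or with Cxcl2 or Cxcl3, and Ccl2 and Ccl7 shared 0. The deposited counts of the 10 genes were whole numbers in all 150 values.

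The promoters of the CXC members are shown because 3 of them carry the same NF-κB consensus match close to the start site. Of these, Cxcl1 peaked in after 11 and Cxcl3 in after 6. Cxcl2 was highest in after 5 in TPM and in after 11 in CPM. RefSeq promoter windows (GRCm38.p6, 250 bases before to 50 after the start) were matched for 7 of the 10 genes, Cxcl1, Cxcl2, Cxcl3, Il6, Lif, Nfkbia and Ptgs2, and Cxcl5, Ccl2 and Ccl7 were not matched. Each sequence runs 5′ to 3′ on the gene's own strand, with 30 bases on either side, and capitals mark the NF-κB consensus match. The windows lie at chr5:90891144-90891214 (plus strand) for Cxcl1, chr5:90903772-90903842 (plus) for Cxcl2, chr5:90785998-90786068 (plus) for Cxcl3, chr5:30013040-30013109 (plus) for Il6 and chr12:55492637-55492706 (minus) for Nfkbia.
Cxcl1: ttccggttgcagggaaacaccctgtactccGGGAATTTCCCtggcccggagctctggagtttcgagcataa
Cxcl2: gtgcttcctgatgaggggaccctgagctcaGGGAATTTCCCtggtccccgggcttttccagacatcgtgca
Cxcl3: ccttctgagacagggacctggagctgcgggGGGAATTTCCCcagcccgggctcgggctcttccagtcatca
Il6: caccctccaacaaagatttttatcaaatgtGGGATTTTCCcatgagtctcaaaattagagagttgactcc
Nfkbia: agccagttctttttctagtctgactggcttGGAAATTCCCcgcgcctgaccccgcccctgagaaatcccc

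The match began 71 bases before the start site in Cxcl1, 97 in Cxcl2 and 73 in Cxcl3, and in these 3 genes the 11 capital bases match the consensus on both strands in overlapping frames. In Il6 it began 44 bases before the start, and in Nfkbia 29 bases before it, on the opposite strand. Of all 32851 promoter windows, 4.51% held the NF-κB consensus on either strand, as did those of 5 of the 7 members matched. The 10-base form GGGAATTTCC, on either strand, was in 0.0883% of all windows and in those of Cxcl1, Cxcl2, Cxcl3 and Nfkbia. This form was copied from the Cxcl1 site, so its presence in Cxcl1 was fixed in advance. Cxcl1, Cxcl2 and Cxcl3 are also close paralogs and not independent cases, so the number of members with a match supports nothing. An AP-1 match (TGANTCA, either strand) was in 7.81% of all windows and in those of Il6 and Lif. Neither motif was found in the Ptgs2 window. A match is a run of letters and was not tested for binding.

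The monocyte chemokines varied less between libraries. Ccl7 was at 7.04, 1.66 and 7.49 TPM in before 5, 6 and 11 and at 9.28, 6.85 and 12.9 TPM in after 5, 6 and 11. It was higher after than before within each of the 3 mice, with before 6 the lowest library. In CPM the groups did not overlap, at 5.38 ± 2.49 after and 2.34 ± 1.17 before (log2 difference 1.20 ± 0.58), while in TPM after 6 lay below before 5 and before 11. Ccl2 was at 5.02, 0.510 and 2.20 TPM before and at 3.93, 0.930 and 4.29 TPM after, and the groups overlapped (0.52 ± 0.83). Mouse 5 was lower after, and mice 6 and 11 were higher.

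Of the cytokines, Il6 was barely present. It had 11, 1 and 0 counts in before 5, 6 and 11 and 1, 0 and 2 counts in after 5, 6 and 11, so 12 of its 15 counts came from before transplantation. It did not pass the filter on low counts. Lif, which was well measured, was at 5.73, 1.60 and 1.96 TPM before and at 3.36, 1.02 and 9.17 TPM after. It was lower after in mice 5 and 6 and higher in mouse 11, and the positive log2 difference of 0.78 ± 0.78 became -0.41 without after 11.

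Nfkbia, the feedback inhibitor, was steady in 5 of the 6 MuSC libraries. It was at 21.6, 19.0 and 21.7 TPM before and at 20.5, 15.3 and 45.1 TPM after in mice 5, 6 and 11, so that after 11 alone stood out. The log2 difference was 0.68 ± 0.51 and became -0.13 without after 11. Ptgs2 was at 18.8, 1.21 and 3.48 TPM before and at 41.4, 3.85 and 1.80 TPM after. Both libraries of mouse 5 were above the other 4, and the log2 difference of 1.03 ± 1.17 became -0.92 without after 5. With before 5 left out instead it was 2.59.

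Of the 10 genes, 7 passed the filter and all 7 had positive differences (median 1.03, against 0.02 over the 13512 genes tested, of which 51.5% were positive). The genes were chosen on this difference, so the count supports nothing. In 3 of the 7 (Cxcl1, Cxcl5 and Ccl7) all CPM values after lay above all values before, where 3.35% of tested genes did so. That count follows from the same choice and supports nothing either. Cxcl5 passed the filter through its libraries after, with 8, 3 and 2 counts in before 5, 6 and 11. Without the filter 9 of the 10 differences were positive, and that of Il6 was -1.66. The edgeR quasi-likelihood test called 0% of the 13512 genes (0 at an adjusted p under 0.05, 305 at an unadjusted p under 0.05). DESeq2 called 16 genes. Without after 11, 4 of 7 differences were positive. The plot of left-out libraries gives each value.

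**Figure D2:**
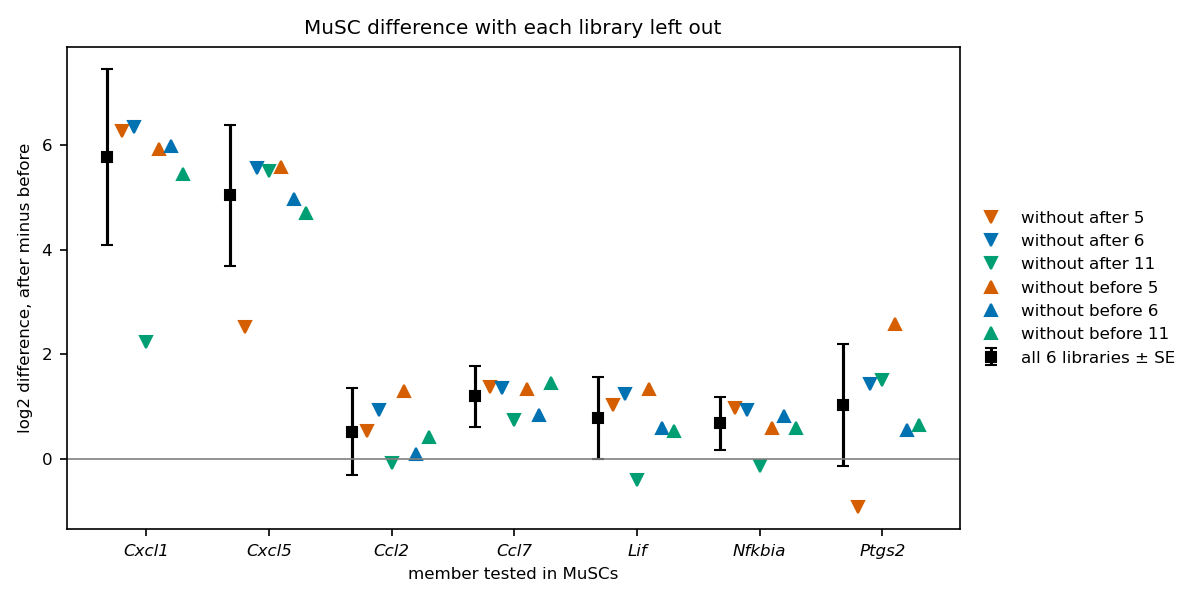
Log2 difference in MuSCs, after minus before (y axis), of the 7 members that passed the filter (x axis). Black squares with SE bars use all 6 libraries, and triangles leave out 1 library each. Cxcl1 drops without after 11, Cxcl5 drops without after 5, Ccl2, Lif and Nfkbia fall below 0 without after 11, and Ptgs2 falls below 0 without after 5. Cxcl1 without after 11 and Cxcl5 without after 5 stay above 2.

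Markers of neutrophils and other leukocytes were set beside these values. The 11 neutrophil markers summed to 0 to 0.470 TPM before and 0.200 to 0.740 TPM after, and 8 of the 11, S100a9 and Csf3r among them, had 0 counts in every library after. The 13 macrophage and monocyte markers summed to 3.34 to 6.47 TPM before and 3.70 to 10.5 TPM after, with Adgre1, C1qa, C1qb, C1qc, Fcgr1 and Ccr2 at 0 in all 6 libraries. Of the 4 markers of all leukocytes Ptprc and Cd52 had 0 counts in all 6. That list summed to 22.8 TPM in after 6 and 6.94 TPM in after 11 against 0.560 to 2.42 TPM in the other libraries. Within it Laptm5 stood at 55.1 CPM in after 6, the library with the highest Cxcl3, and at 13.5 CPM in after 11. The 8 fibroadipogenic markers summed to 105 TPM in after 5, the library with the highest Cxcl5, against 35.6 to 77.0 TPM in the rest, with Dcn, Lum and Dpp4 at 0 in all 6 libraries. Interferon response genes summed to 1099 TPM in after 11, the library with the highest Cxcl1 and Nfkbia, against 21.3 to 36.3 TPM in the others. Mature myofibre markers were negative in 8 of 8 (median -0.83) and summed to 898 TPM in after 11 against 3918 to 12214 TPM in the other 5 libraries. Immediate early genes, which cell dissociation also induces, were positive in 10 of 16 (median 0.29). Of the 16, 3 were higher after without overlap, as were 3.35% of all tested genes. Fosb (1.27) and Junb (0.95), subunits of AP-1, had the highest differences. That list summed to 446, 410 and 300 TPM in after 11, 5 and 6 and to 294 to 378 TPM before. The part of these other cells and programmes in the chemokine levels was not tested.

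The genes of the same pathway were followed as lists, and no gene of any list passed edgeR's test in either comparison. Of 20 genes for NF-κB subunits, inhibitors and feedback, 17 were tested in MuSCs, with 13 positive and 4 negative (median 0.57). Ier3, an early NF-κB target that protects from cell death, had the highest difference (1.60 ± 0.61). In mice 5, 6 and 11 its level went from 17.5, 23.5 and 10.8 CPM before to 30.7, 24.9 and 102 CPM after, without overlap. Of all tested genes, 3.35% were higher in this way. Bcl3, a nuclear IκB protein, was next, at 29.5 CPM in after 11 and 3.46 to 9.31 CPM in the other 5 libraries. Ikbkg, the regulatory subunit of the IκB kinase, had the lowest difference (-0.37), with all 3 libraries after below those before. The share of all genes lower in this way was not determined. Among 14 tested inducers and receptors 9 were positive (median 0.16), with Tlr2 at 0.81 and the endotoxin receptor Tlr4 at -0.87.

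Among prostaglandin genes 7 of 10 tested were positive (median 0.50). Ptges makes prostaglandin E2 from the product of Ptgs2. Its libraries after (131, 50.6 and 176 CPM in mice 5, 6 and 11) all lay above those before (14.1, 38.9 and 22.1 CPM), with a log2 difference of 2.25 ± 0.57. Of all tested genes, 3.35% had all values after above all before. Ptges was thus high in after 11, where Ptgs2 was at its lowest after transplantation. Ptgis, prostacyclin synthase, stood at the other end (-1.44).

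In the IL-6 family list 7 of 14 were positive (median 0.02). Its highest gene was Il11, another gp130 cytokine, at 496 CPM in after 5 and 7.54 to 45.4 CPM in the other 5 libraries, so Il11 was highest where Cxcl5 and Ptgs2 were. Of 25 other chemokine genes, 4 were tested, with 2 positive (Cx3cl1 1.28 and Cxcl12 0.07). The receptors of the members, 7 genes with Cxcr2 and Ccr2 among them, were too low to test in MuSCs.

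**Figure D3:**
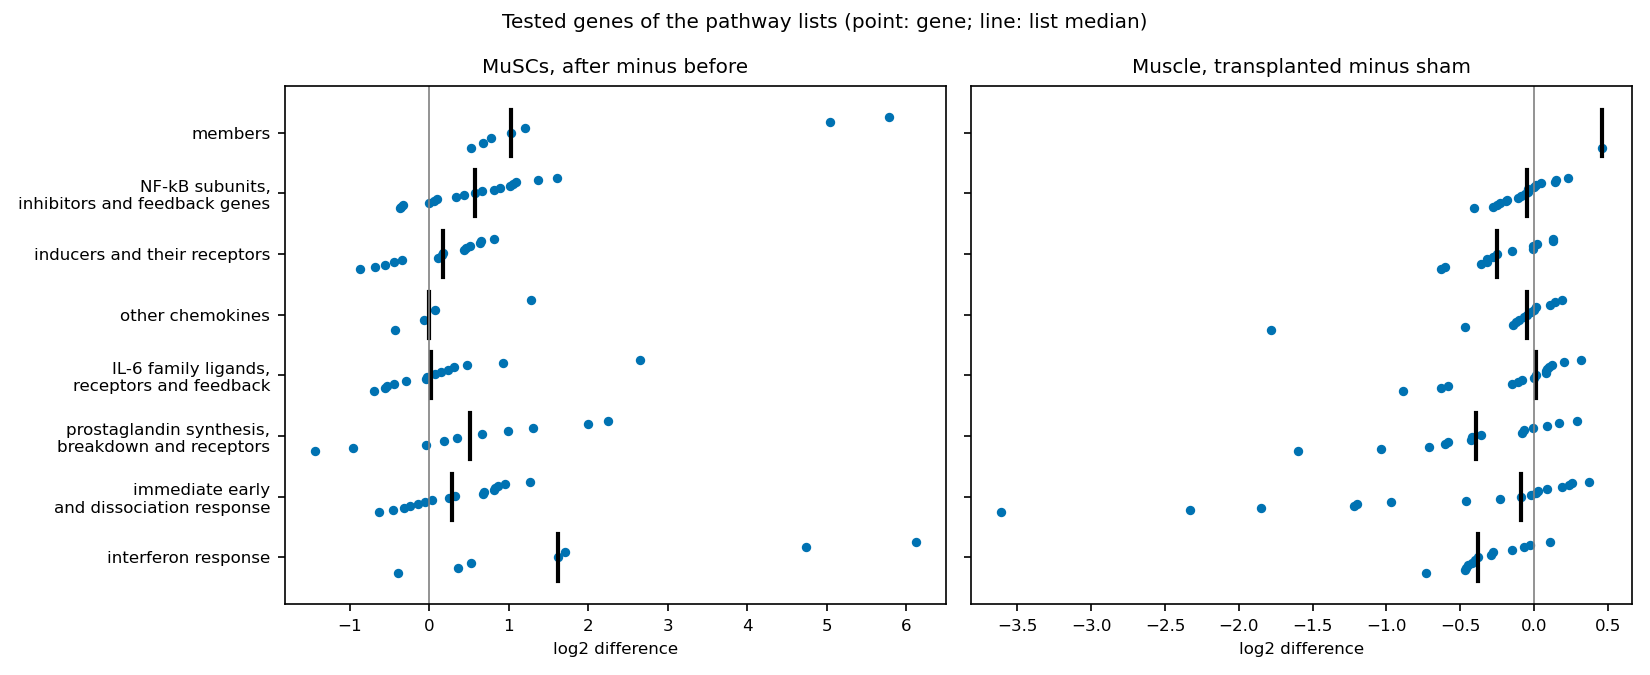
Log2 differences (x axis) of every tested gene in 8 lists (y axis) in MuSCs, after minus before (left), and in muscle, transplanted minus sham (right, on its own scale). Points are genes and black lines list medians. In MuSCs the NF-κB median is 0.57 and the prostaglandin median 0.50, and in muscle they are -0.05 and -0.39.

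Some genes followed the members closely over the 6 MuSC libraries. Likeness was the root mean square difference between log2 CPM profiles centred on their means, with smaller values closer. For Cxcl1, whose profile spans 7.89 log2 units, the nearest genes were Apol9a (0.65), Lgals3bp (0.88), Irf7 (0.89) and Sh2d3c (1.06). Irf7 is a transcription factor of the interferon response, and it stood at 96.7 CPM in after 11 and 0.395 to 1.01 CPM elsewhere. For Cxcl5, with a span of 6.59, they were Odaph (0.38), Gldc (0.71), Tinagl1 (0.74), Rapgef3 (0.75) and Itgb7 (0.82). For Nfkbia, with a span of 1.80, they were Spsb1 (0.12), Adamts7 (0.14), Adam15, Cmtr1 and Acot1 (0.15 each). Over the 9 muscle libraries, with profiles centred within each table, the genes nearest to Ccl2 (span 2.32) were Ephx4 (0.21), Dtx1 (0.29), Camkk1 (0.31), Gfra4 (0.32) and Tbx18 (0.33), and those nearest to Nfkbia (span 0.62) were C2cd2l and Slc25a38 (0.09 each), and Exosc5, Cbx8 and Pcid2 (0.10 each). These are descriptions of 6 and 9 libraries.

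In whole muscle 9 of the 10 genes were close to the limit of detection, and Nfkbia was the exception. The TPM values below come from separately deposited tables, are set side by side without scaling between them and were not tested across tissues. Ordered by group median, Cxcl1 went from 8.98 TPM in MuSCs after to 0.990 in MuSCs before, 0.490 in sham muscle and 0.190 in transplanted muscle. In TPM the MuSC groups overlapped narrowly (after 6 at 1.53, before 5 at 1.57), and MuSCs before and sham muscle overlapped. Sham (0.380 to 0.810) and transplanted muscle (0.100 to 0.330) did not overlap in TPM, at 1 to 12 counts per library. In CPM they did, with transplanted 11 (0.326) above sham 192 (0.265). The share of all genes without overlap in TPM was not determined. Cxcl5 went from 1.09 to 0.130 TPM in MuSCs after and before and was at 0 in 8 of 9 muscle libraries, with 1 count in sham 3. Cxcl3 had 0 counts in all 9, where the detection floor of 3 counts over a group is 0.0237 CPM for the transplanted mice and 0.0514 CPM for the shams. Cxcl2 had 2 counts in transplanted 14 and 0 in the other 8.

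Ptgs2, at 3.85 and 3.48 TPM in the median MuSC library after and before, was at 0 to 0.0800 TPM in transplanted and 0.0300 to 0.100 TPM in sham muscle. Lif was at 0.0100 to 0.130 and 0.0900 to 0.140 TPM there. For Cxcl5, Ccl7, Lif, Nfkbia and Ptgs2 each MuSC library was above each muscle library in TPM. MuSC and muscle libraries overlapped or tied for Cxcl1, Cxcl2, Cxcl3, Ccl2 and Il6. The share of all genes that separate MuSCs from muscle in this way was not determined. Between the MuSC groups, and between the muscle groups, the TPM ranges of Ccl2, Ccl7, Il6, Lif and Ptgs2 overlapped. In mice 5, 6 and 11, which gave both kinds of library after transplantation, Cxcl1 was at 0.220, 0.270 and 0.330 TPM in muscle beside 8.98, 1.53 and 129 TPM in their MuSCs.

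**Figure D4:**
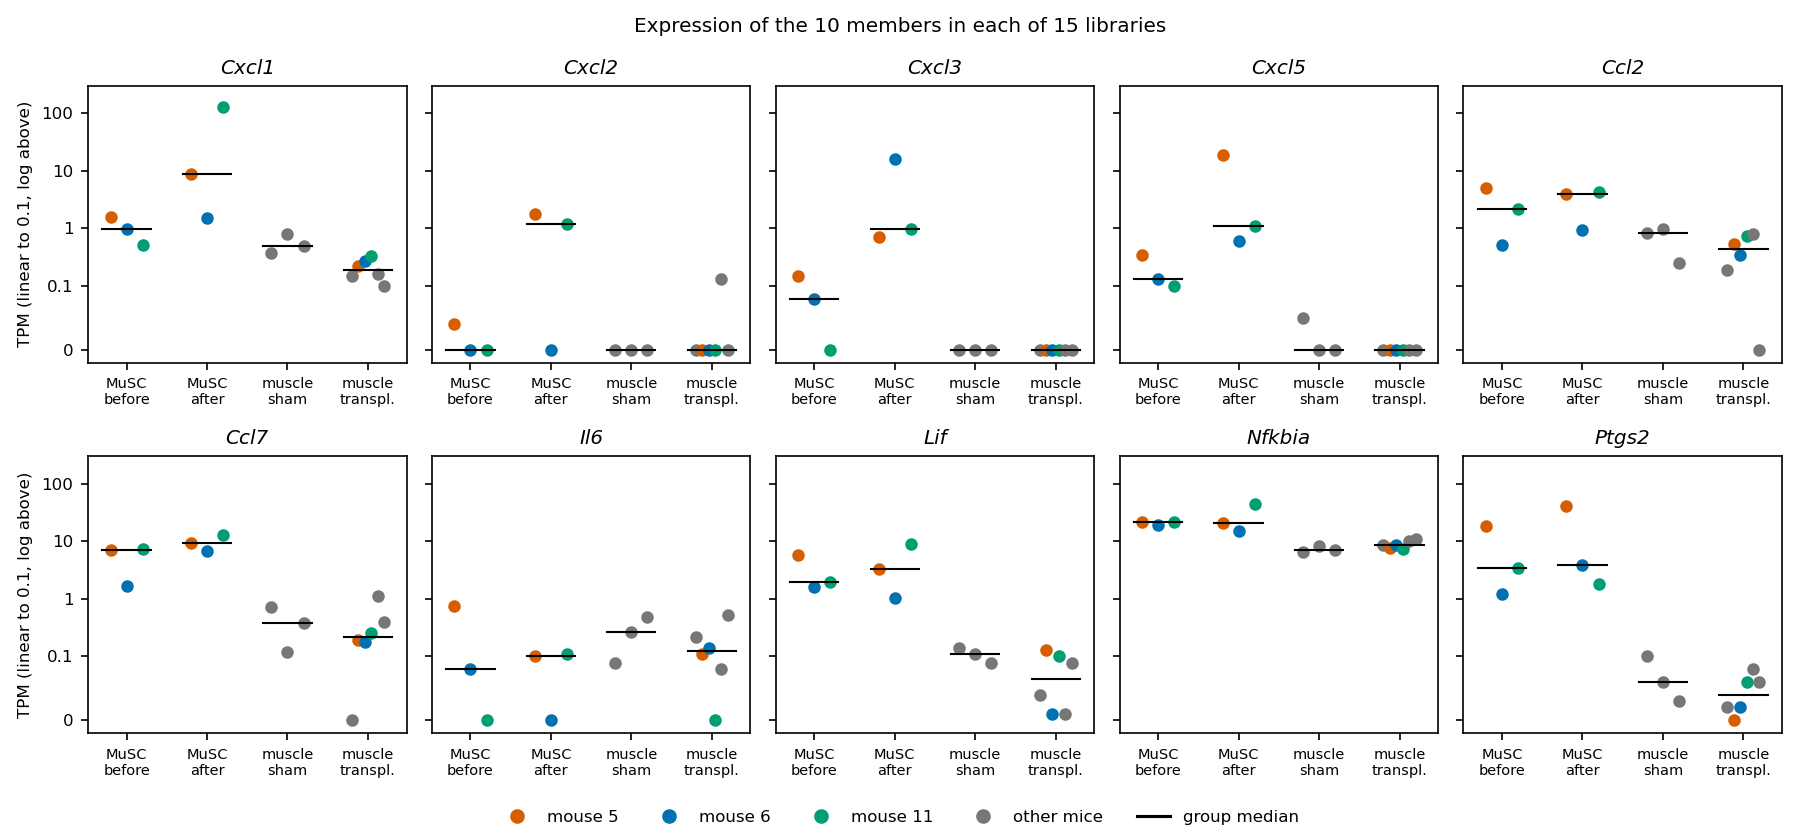
TPM (y axis, linear up to 0.1 and logarithmic above) of each member in the 15 libraries by group (x axis), with mice 5, 6 and 11 in colour and group medians as lines. Nfkbia lies between 6.55 and 45.1 TPM throughout, while the 4 CXC chemokines are at or below 0.810 TPM in every muscle library.

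The muscle comparison asked how transplanted differed from sham muscle. Nfkbia was at 7.50, 8.35 and 7.42 CPM in sham 3, 12 and 192, and its values in the 6 transplanted libraries ran from 9.80 CPM (mouse 5) to 11.4 CPM (mouse 94) with a median near those of mice 4 and 6 (10.5 CPM each). The groups did not overlap in CPM, as was so in this direction for 1.15% of the 14375 genes tested. Nfkbia was chosen with its place in the muscle ranking known, so this supports nothing. The means were 10.6 ± 0.617 CPM (SD, n = 6) and 7.76 ± 0.515 CPM (n = 3), and the log2 difference with the table as a term was 0.46 ± 0.11. It was 0.56 in the 2-sham table and 0.28 in the 1-sham table, as differences of mean log2 CPM. In TPM the groups overlapped, with sham 12 at 8.47 TPM above transplanted 5 (7.66) and 11 (7.51). The fitted difference between the tables was -0.28 ± 0.21. Over all genes edgeR's quasi-likelihood test of that interaction called 0% (0, with 1344 at an unadjusted p under 0.05, and 130 with DESeq2).

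Cxcl1 was measured at few counts in muscle. It had 7, 12 and 5 counts in sham 3, 12 and 192 and 2, 3, 5, 7, 2 and 1 counts in transplanted 4, 5, 6, 11, 14 and 94. Within both tables each transplanted library lay below each sham in CPM, while over all 9 libraries transplanted 11 (0.326 CPM) lay above sham 192 (0.265 CPM). It was the 1 member of 9 with counts to do so, and 2.25% of genes with at least 1 count were lower in this way. The ratio of rates was 0.385 (95% exact counting interval 0.202 to 0.727). Cxcl1 was below the filter, and without a filter edgeR's quasi-likelihood test gave a log2 difference of -1.61 ± 0.65 (adjusted p = 0.863), in a fit that called 0.0416% of genes.

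**Figure D5:**
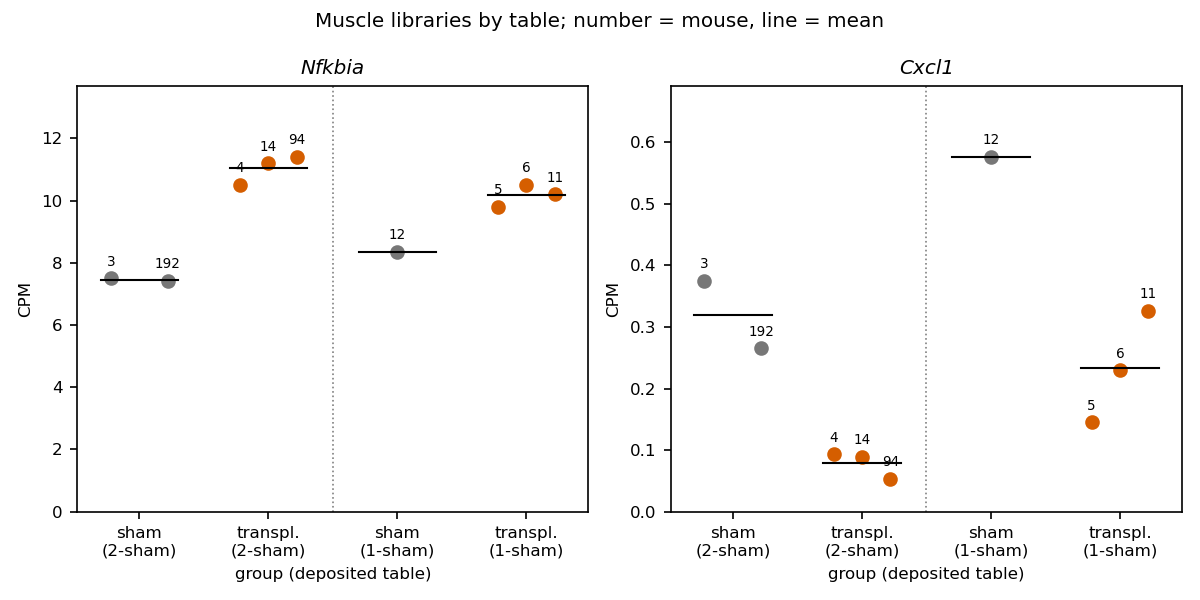
CPM (y axis, from 0) of Nfkbia (left) and Cxcl1 (right) in sham (grey) and transplanted (orange) muscle by deposited table (x axis), numbered by mouse, with lines at the means. Nfkbia is 9.80 to 11.4 CPM in transplanted against 7.42 to 8.35 CPM in sham muscle, and Cxcl1 is at most 0.576 CPM.

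For the other members with counts the muscle groups overlapped. Ccl2 was at 0.250 to 0.990 TPM in shams and 0 to 0.790 TPM in transplanted muscle, Ccl7 at 0.120 to 0.710 and 0 to 1.11 TPM, and Il6 at 0.0900 to 0.480 and 0 to 0.520 TPM. Their ratios of rates, transplanted over sham, were 0.670 (0.366 to 1.25), 0.970 (0.437 to 2.31) and 0.667 (0.264 to 1.77), and those of Lif and Ptgs2 were 0.680 (0.367 to 1.29) and 0.710 (0.336 to 1.55). These intervals cover counting error only, leave out the spread between mice and are not limits of detection. Of the 10 genes Nfkbia alone passed the filter, and edgeR called 0% of 14375 genes (0 at an adjusted p under 0.05, 1017 unadjusted, 6 with DESeq2).

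Most of the pathway lists held more negative than positive differences in muscle, where 49.9% of all tested genes were positive (median -0.00), and the IL-6 family list did not (9 of 15 positive, median 0.01). In the NF-κB list 6 of 18 were positive (median -0.05), from Relb (0.23) to Bcl3 (-0.41). Nfkbia had a larger difference than each of the 18. It was chosen with its high place in the muscle ranking known, so this supports nothing. Of inducers and receptors 3 of 13 were positive (median -0.25), with Il1rap, the IL-1 receptor accessory chain, at -0.63 and without overlap. The share of all genes lower without overlap over all muscle libraries was not determined, here or for Egr1 below. Prostaglandin genes were positive in 3 of 14 (median -0.39), with the receptor Ptger3 at -1.60 and Hpgds, prostaglandin D synthase of blood cells, at -1.04. The shams were scattered for Ptger3 (0.106 to 6.05 CPM) and overlapped the transplanted libraries (0.326 to 1.43 CPM). Of the members' receptors 3 of 7 were tested, and all 3 were negative (Ackr2 -0.11, Ccr2 -0.13, Ackr1 -0.87). Cxcl9, an interferon-induced T cell chemokine, had the lowest difference of 13 other chemokines (-1.78).

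Markers of other cells are set beside these lists. Macrophage and monocyte markers were negative in 11 of 12 (median -0.18) and summed to 39.7 to 66.0 TPM in transplanted and 48.2 to 102 TPM in sham muscle, with sham 12 the highest. Fibroadipogenic markers were negative in 6 of 8 (median -0.35), at 236 to 312 and 312 to 516 TPM, and interferon genes in 12 of 13 (median -0.38). Adipocyte markers were negative in 5 of 5 (median -1.57), at 260 TPM in sham 12 and 10.2 to 75.8 TPM in the other 8 libraries. Immediate early genes were negative in 10 of 17 (median -0.09), with the lowest differences in Fosb (-3.61) and Egr1 (-2.33), transcription factors of the early response. Egr1 was at 41.6 to 70.9 CPM in shams and 2.70 to 18.2 CPM in transplanted muscle, without overlap, while Fosb was at 21.6, 17.4 and 0.318 CPM in sham 3, 12 and 192. The list summed to 427 and 470 TPM in sham 3 and 12, to 181 TPM in sham 192, which also had the lowest Cxcl1 of the shams in CPM, and to 192 to 278 TPM in transplanted muscle. The part of these genes and cells in the levels of the members was not tested.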

How the data were processed

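RNA sequencing of 15 libraries was used (NEBNext Ultra RNA kit after Trizol extraction, per the labels' protocols). The authors deposited 3 tables with estimated counts and TPM per gene, per the file headers. The deposited counts were not all whole (7.4 to 8.8% of values per library were not) and were rounded. No source used here names the aligner, quantifier, annotation release or strand setting. The 3 columns of a library that matched no label were not used. Sham muscle was told from transplanted muscle by title, since the treatment entry is the same for both.

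Both comparisons were fitted over all genes with edgeR 4.0.16 (R 4.3.3), quasi-likelihood test, filterByExpr (minimum count 10), TMM scaling, Benjamini-Hochberg adjustment, 2-sided, threshold 0.05, and the script was tested on simulated data. MuSCs had no covariate, and muscle had the table as a term. An SE is the log2 difference over the root of F. DESeq2 1.42.0, other scaling, no filter, a mouse block and omitted libraries were alternatives. Log2 CPM used a prior count of 2. Detection floors are 3 counts over a group. NF-κB consensus matches were sought on both strands of RefSeq promoter windows of 300 bases.

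MuSC libraries of 1 mouse number were taken as the same animal, from the labels' word autologous. The correlation of same-mouse deviations from the group means was 0.29 (mouse 5), 0.36 (mouse 6) and -0.39 (mouse 11). Across mice it was 0.55 (after 11, before 6) and 0.48 (after 5, before 11), in both cases within a set. Between libraries of different sets, those of mouse 11 among them, it was -0.15 to -0.68. The sign of the correlation thus went with the set, and the pairing rests on the labels. No 2 libraries of a group were alike within counting noise (lowest chi-square over its degrees of freedom 16.7). Mouse numbers in the titles were read as separate animals.

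The members and the lists were chosen with earlier results of these data known. List genes named are the 2 highest and 2 lowest differences of a list, or some of these, apart from markers at 0 and the receptors, named after their values were seen. Like genes are taken from the 5 nearest by profile, leaving out predicted genes, and some genes are not reported here.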

Additional observations from a re-analysis of the deposited data

Results flagged for a closer look

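Among the 6 transplanted muscle libraries, 21 sets of values (the members with counts and the summed marker and response lists) were checked for 1 library far from the rest, and 5 were found. Chance gives about 1 in 20 for continuous values, a rate that does not hold for genes at a few counts. Cxcl2 was at 0.0893 CPM in transplanted 14, from 2 counts, and at 0 in the other 5, so that any count there would have stood apart. Ccl7 was at 0.491 CPM in transplanted 14, from 11 counts, and at most 0.161 CPM in the other 5. Endothelial markers summed to 49.3 TPM in transplanted 4 against 68.5 to 79.7 TPM in the rest, mature myofibre markers to 118013 TPM in transplanted 5, and adipocyte markers to 75.3 TPM in transplanted 6. These last lists hold no member.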

How the results depend on the processing

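The MuSC test called 0 genes in its main form, with RLE scaling, with no filter, with the set as a term, in set B alone and with each library left out (0 to 0), but 16 with DESeq2, 43 in set A alone and 4 with after 6 as the lone library after, where lone libraries are assumed to vary like the others. With the mouse as a replicate block edgeR called 0 genes, and the block changed no call. The differences with the block were 3.41 for Cxcl1, 4.20 for Cxcl5, 0.64 for Ccl2, 1.26 for Ccl7, 0.34 for Lif, 0.43 for Nfkbia and 0.83 for Ptgs2. Over 14 alternatives Cxcl1 (0.87 to 6.35), Cxcl5 (2.08 to 6.37) and Ccl7 (0.31 to 2.62) kept a positive sign, while the sign turned in 2 for Ccl2 and Ptgs2 and in 3 for Lif and Nfkbia. In muscle 0 genes were called in the main fit, 11 with no filter, 6 with DESeq2, 1 in the 2-sham table alone, 41 in the 1-sham table alone and 0 to 4 with a library left out. Nfkbia ranged from 0.29 to 0.57 over 15 alternatives. The interaction called 0 genes, 60 with no filter, 130 with DESeq2 and 0 to 1 with a library left out. The cause of these differences in count was not tested. Counts of 0 to 12 limit all members but Nfkbia in muscle.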

Other observations

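The MuSC libraries spread apart after transplantation in Csf1, the growth factor of macrophages. It stood at 723 ± 20.2 CPM before and 637 ± 338 CPM after (SD, n = 3 each; log2 difference -0.18), with a range of 706 to 745 CPM before and of 368 CPM (mouse 5) to 1016 CPM (mouse 11) after. In muscle it was at 9.72 ± 1.22 CPM in shams and 8.16 ± 1.49 CPM in transplanted mice (-0.24).

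The factors that degrade cytokine transcripts were split in MuSCs, 5 positive and 4 negative of 9 (median 0.00). Zc3h12a, the RNase Regnase-1, stood at 77.3 CPM in after 11 and 9.48 to 11.9 CPM in the other 5 libraries, so Zc3h12a was highest in the library with the highest Cxcl1 and Nfkbia. Rc3h1 and Rc3h2, the Roquin proteins, had the lowest differences (-0.72 and -0.60). In muscle Zfp36l2 had the lowest of the 9 (-0.60), where the highest transplanted and the lowest sham library were both 16.9 CPM after rounding.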
